A study of Drosophila melanogaster with 48 samples.

Results

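Distal open chromatin regions that were found in every peak list of the study numbered 4341, out of 25397 regions in the list they were drawn from. The study measured chromatin accessibility by ATAC-seq, which uses a transposase to insert sequencing adapters into exposed DNA, in Drosophila S2 cells, a cultured embryonic line that resembles hemocytes (insect blood cells). The regions were taken from the peak list of the HA-Twi titration on the chromosome arms 2L, 2R, 3L and 3R. A member had to overlap each of the other 9 lists by at least 1 bp, to be under 600 bp wide, and to have its strongest summit over 2000 bp from both ends of every protein-coding gene. Of 20397 regions of that list on the 4 arms, 19777 were under 600 bp wide, 13794 of these were also present in all other 9 lists, and 4341 of those were distal. The members were thus chosen by their presence in the 10 lists, their width and their position, and these are given as a description without a test.

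The lists came from 48 libraries in 24 groups of 2, all harvested 48 h into an induction in which CuSO4 switches on the introduced factor. The groups at 0 uM received no CuSO4, and S2-WT cells are the wild type at the matched dose. S2-Grh cells (Grainyhead, a regulator of epidermal genes) at 100 uM were set against S2-WT cells at 100 uM, and S2-Zld cells (Zelda, an activator of the early zygotic genome) at 1000 uM against S2-WT cells at 1000 uM. S2-Twi cells (Twist, which directs mesoderm formation) at 40 uM were set against S2-WT cells at 40 uM. S2-Grh-DBD and S2-Zld-DBD cells, which carry the DNA-binding domain alone, received 20 and 100 uM and were set against S2-WT cells at the same doses. Titrations covered S2-Grh at 0, 25, 100 and 400 uM, S2-Zld at 0, 500, 1000 and 1500 uM, and S2-HA-Twi at 0, 10, 40 and 160 uM. Further libraries came from S2-Grh-DBD cells at 80 uM and S2-Zld-DBD cells at 400 uM. Each list pools its groups, so no value per library exists, depth is unknown, and the control and factor cells behind a list cannot be told apart. The labels do not say whether the 2 libraries of a group came from separate cultures.

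Distal open regions of this kind include enhancers, stretches of DNA that bind transcription factors and act on a promoter at a distance, often from within an intron of the gene they control or of a neighbour. Other elements that open chromatin away from the ends of protein-coding genes are insulators, silencers such as Polycomb response elements, and the promoters of noncoding genes. In hemocytes, the GATA factor Serpent and its cofactor U-shaped act through such elements, and the steroid hormone ecdysone switches on a cascade of nuclear receptor genes whose long introns hold many of them. The gene nearest to an element is not always the gene it controls, so genes are named here for position only.

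A smaller share of distal regions than of gene-end regions was present in all lists, a difference that was not tested because presence was part of the choice. Of 6894 distal regions under 600 bp, 4341 (63%) were in all other 9 lists, against 6866 of 8908 regions (77.1%) with the summit within 500 bp of a gene end. Over all 20397 regions of the 4 arms the share was 70.6%. A further 585 distal regions were missing from a single list and 61 were in no other list. The Twi list held the most of the 6894 distal regions, 92.8%, and the Grh DBD titration list the fewest, 77.6%. Distal regions missing from the Twi list alone numbered 6, against 126 missing from the Grh titration list alone and 117 from the Grh DBD titration list alone. The Twi list is also the longest, with 71754 regions.

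Marker genes of hemocytes held open chromatin in all lists in 8 of 10 cases, against 60% of all 13946 protein-coding genes, counting any region inside the gene or within 500 bp of it. srp, the gene of Serpent, had 7 such regions, ush had 28, and the extracellular matrix genes Pxn, Col4a1 and vkg had 4, 2 and 5, while the hemocyte surface genes NimC1 and He had 0. Neuronal markers, with the glial gene repo counted among them, had a region in 4 of 5 genes. Germline markers had one in 3 of 3 matched genes, epidermal markers in 2 of 5 and muscle markers in 1 of 5. These counts do not set hemocyte markers apart from the others, and open chromatin at a marker is not a measure of its transcription.

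Distal regions were weaker and broader than regions at gene ends. The authors' fold enrichment, the height of a peak over its local background, had a median of 6.26 over the distal regions and 9.65 over the gene-end regions in the HA-Twi titration list. In the Zld list these medians were 5.70 and 8.01, in the Grh list 4.26 and 5.26, and in the Twi list 4.34 and 5.09. The smallest gap among the 8 lists with labelled libraries was in the Zld DBD list, with 4.00 over distal and 4.73 over gene-end regions. Over the 7 such lists other than the HA-Twi titration, which chose the regions, the median fold enrichment was lower at distal regions by a mean of 1.52 (difference -1.52 ± 0.804, SD over lists, n = 7). It was lower in 7 of 7 lists, and a two-sided exact permutation test over lists gave p = 0.0156 and an adjusted p = 0.0156 over 3 tests, the smallest that 7 lists can give. When each region in each list had to reach a −log10 q of 10, the difference was -0.858 and its adjusted p was 0.0469 in the same exact test. As the largest of the 3 adjusted values (the others 0.0234), it equals the unadjusted p, while 7 lists of 1 sign would give 0.0156. The distal median was therefore not lower in all 7 lists at that setting. The lists come from the same cell line, so these p values describe these lists and not independent cultures.

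Breadth ran the other way. Distal regions were wider by 82.6 ± 13.2 bp (SD over 7 lists) in their medians, and wider in 7 of 7 lists (exact permutation test, adjusted p = 0.0156). In the Twi list, for example, the median width was 287 bp over distal regions and 188 bp over gene-end regions. Distal regions also held 0.345 ± 0.0484 more summits per region, again in 7 of 7 lists, with the same adjusted p in the exact test. Widths and summit numbers follow the authors' peak calling, and both sets were held under 600 bp in the HA-Twi titration list.

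**Figure D1:**
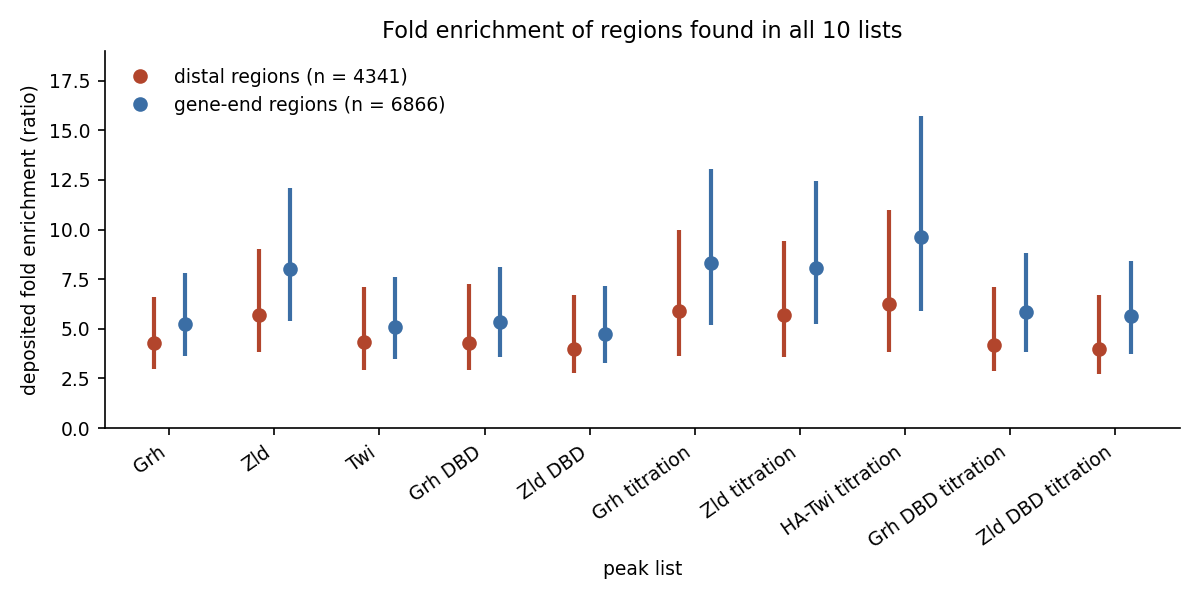
Median fold enrichment (authors' values, linear axis from 0) of the 4341 distal regions and the 6866 regions at gene ends in each list; points are medians and lines span the 25th to 75th percentile over regions. The distal median is the lower of each pair, with 6.26 against 9.65 in the HA-Twi titration list at one end and 4.00 against 4.73 in the Zld DBD list at the other.

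Most of the difference in strength with distance lay close to the gene. Median fold enrichment over the 8 lists was 6.44 for regions of all lists within 500 bp of a gene end, 5.27 between 500 and 1000 bp, and 5.01 between 1000 and 2000 bp. Beyond the limit that defines distal regions it was 4.80 up to 5000 bp, 4.72 up to 10000 bp, 4.70 up to 20000 bp and 4.84 farther out. The 4 distal bands thus spanned 4.70 to 4.84. The share of regions found in all lists likewise stood at 61.5%, 64.3%, 65.1% and 60.9% in those 4 distal bands.

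The limits cut through a continuum. Just over 2000 bp lay a region 2003 bp from CG45544 with a median fold enrichment of 4.20, a region inside metro at 2005 bp with 11.6 and a region inside Frl at 2006 bp with 8.99. At or just under it lay regions inside Teh1 (2000 bp, 6.60), GramD1B (1998 bp, 4.26) and Kal1 (1998 bp, 2.43). By width, regions of 599 bp inside crol and sbb and near Ten-m were kept, with median fold enrichments of 4.57, 9.51 and 8.04. A 600 bp region inside px (3.17), a 600 bp region on 3L 31776 bp from CG43245 (7.22) and a 601 bp region inside bab1 (12.8) were left out.

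Distal regions lay mainly inside genes. Of the 4341, 3479 (80.1%, exact binomial 95% interval 78.9 to 81.3) had their summit inside a protein-coding gene, 154 of them inside 2 or more. Sequence far from gene ends is itself mostly inside genes: 63.8% of the 67848.6 kb that lie over 2000 bp from every gene end are within a gene body. Per 100 kb of such sequence there were 8.04 distal regions inside genes and 3.51 outside. Their strengths were close, with a median fold enrichment of 4.68 inside and 5.07 outside. The gene table gives starts and ends only, so introns, exons and UTRs were not separated.

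The 4 arms carried 944 (2L), 936 (2R), 1194 (3L) and 1267 (3R) distal regions, between 6.08 and 6.64 per 100 kb of sequence far from gene ends. The median distance to the nearest gene end was 6632 bp (range 2003 to 555705 bp), and the median width was 241 bp (64 to 599 bp).

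Many distal regions lay close together. The median distance to the nearest other distal region was 1133 bp, and 47.1% had another within 1000 bp and 74.9% within 5000 bp. Of all sequence far from gene ends, 9.24% lay within 1000 bp of a distal region and 24.7% within 5000 bp. Joined at gaps of up to 5000 bp, they formed 2023 runs, of which 1090 were single regions and 200 held 5 or more, with 1333 regions in those 200. The longest run by number was 19 regions over 26707 bp inside shn (2R:11184378-11211084, dm6), which encodes Schnurri, a zinc finger cofactor of Dpp signalling. The next held 18 regions over 34008 bp inside ush, and 16 over 27208 bp inside Pde11, a cyclic nucleotide phosphodiesterase gene. A run of 14 lay inside Hipk, which encodes a protein kinase, and 13 inside tai.

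Several large runs stood outside genes. A run of 15 regions at 3L:8681294-8709259 began 2041 bp from hry, the pair-rule gene hairy, and another of 15 lay between hng3 and CG13898 on 3L and spanned the tRNA genes tRNA:Ile-TAT-1-1 and tRNA:Ile-TAT-1-2. A run of 14 at 2L:1625725-1649111 ended 2147 bp from chinmo, a BTB zinc finger gene that controls developmental timing, and its strongest region had a median fold enrichment of 23.9. Another run lay over lncRNA:CR43334, which the gene table lists under the synonym pri-bantam, the precursor of the growth-promoting bantam microRNA. That run held 12 regions at 3L:626851-641496.

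The strongest distal region had the highest fold enrichment in each of the 8 lists with labelled libraries. It lay inside Myo81F, an unconventional myosin gene, at 3R:2088372-2088518 (dm6), 147 bp wide and 444487 bp from the nearest gene end, with a median fold enrichment of 115.7 over those lists. Its fold enrichment was 96.0 in the Grh, 112.8 in the Zld, 103.0 in the Twi, 126.2 in the Grh DBD and 122.2 in the Zld DBD list. In the titrations it was 121.4 for Grh, 102.1 for Zld, 118.5 for HA-Twi, 124.0 for Grh DBD and 119.3 for Zld DBD. No other distal region had a median above 41.6. The gap was narrower in the Grh list, where a region inside Pzl had 72.7. It was also narrower in the Twi list, where a region near CG46302 had 67.0. How well reads can be placed in Myo81F, in Pzl and near CG46302 was not tested, so these values are given as a description.

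The region ranked second by median, at 2L:7976710-7977035 inside Snoo, which encodes a SKI/SNO corepressor, had a median of 41.6, with 24.5 in the Grh list as its lowest value and 55.8 in the HA-Twi titration list as its highest. A region at 3R:4835335-4835580, with CG14659 at 4193 bp on one side and the pair-rule gene opa at 17323 bp on the other, had a median of 40.2 (28.9 in Grh, 56.6 in HA-Twi titration). Inside hth, the homeodomain gene homothorax, a region at 3R:10535782-10536075 had a median of 37.9 (27.3 in Grh, 53.6 in HA-Twi titration). The same 2 lists gave the lowest and highest values of all 3 regions.

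Further down came a region between the Iroquois homeodomain genes caup and mirr (3L:12653180-12653440, median 32.8), a region inside the homeobox gene dve (2R:22270570-22270999, 32.7) and a region inside the Hox gene Abd-B (3R:16948613-16948895, 32.4). The Abd-B region ranged between 23.4 in the Grh list and 51.1 in the HA-Twi titration list. The other 5 of the 12 strongest lay inside Pzl (35.2) and CG5888 (34.0) and outside genes nearest to CG4372 (34.7), CG31275 (34.5) and CG10651 (33.1). The Pzl region was high in the Grh and Twi lists, with 72.7 and 59.3, and lowest in the HA-Twi titration list, with 21.2. At the weak end, the weakest region lay outside genes nearest to eEF1gamma, with a median of 1.48, followed by regions inside osa (1.52) and luna (1.52).

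**Figure D2:**
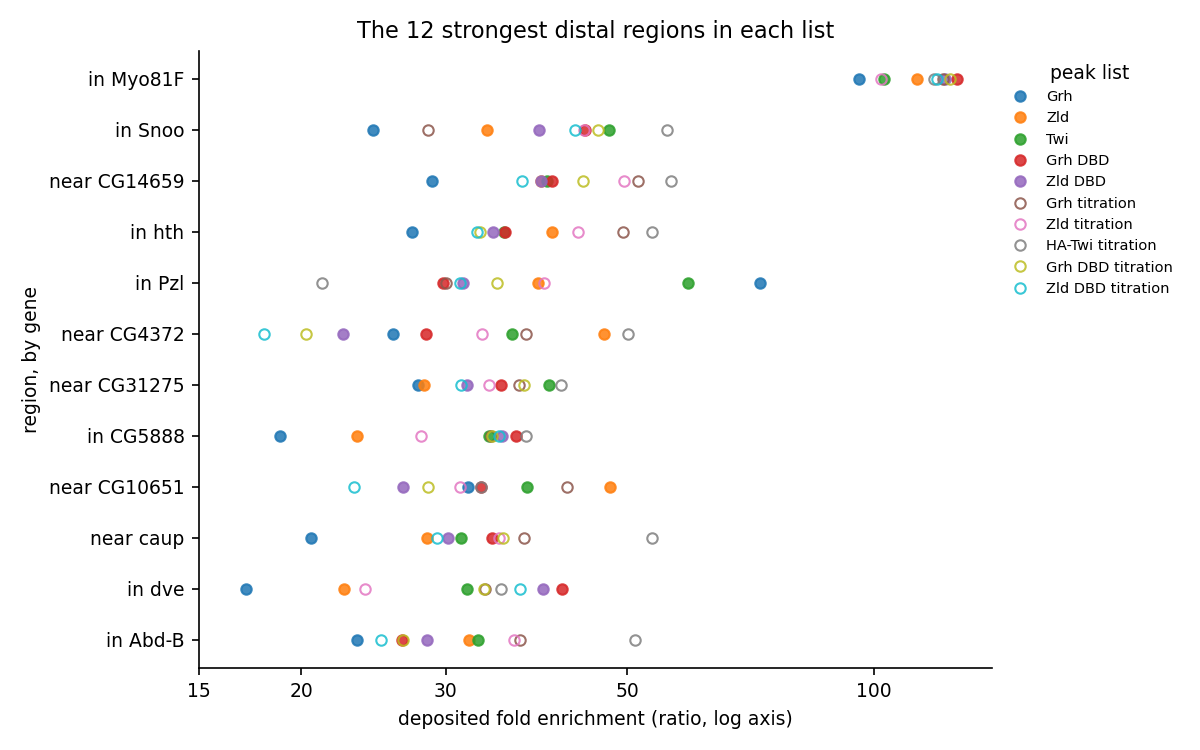
Authors' fold enrichment (log axis) of the 12 strongest distal regions, named by the gene that holds or is nearest to each, 1 point per list. The Myo81F region lies between 96.0 and 126.2 in all lists, apart from the other 11, whose medians are between 32.4 and 41.6.

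tRNA genes that lie away from protein-coding gene ends were closely matched by distal regions. tRNA genes are transcribed by RNA polymerase III from promoter elements inside the gene. Of 134 such tRNA genes on the 4 arms, 103 (76.9%, exact 95% interval 68.8 to 83.7) had a distal region within 500 bp, while 5.45% of all sequence far from gene ends lay that close to one. Of 1111 lncRNA genes with an end over 2000 bp from coding gene ends, 135 (12.2%, interval 10.3 to 14.2) had a distal region within 500 bp. The tRNA genes were instead placed by their midpoint. The 5.45% is for single positions, while a gene whose ends lie apart has more sequence near it, so these shares are not like for like. tRNA genes were picked out after their values had been seen, and the intervals cover counting error over genes only.

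These 89 distal regions near tRNA genes lay at the gene: 82 had the summit within 50 bp of a tRNA gene end, the median distance was 22 bp, and 5 summits were inside the tRNA gene itself. Inside protein-coding genes lay 51 of the 89. They were stronger than other distal regions, with a median fold enrichment of 8.53 for the 89 and 4.67 for those near neither a tRNA nor a lncRNA gene. The ratio of the medians ran between 1.58 in the HA-Twi titration list (9.80 near tRNA genes, 6.20 otherwise) and 2.19 in the Twi list (9.33 near tRNA genes, 4.25 otherwise). All 10 lists thus gave the higher median near tRNA genes.

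The strongest of them stood 20 bp from tRNA:Gly-TCC-2-2 at 2R:21848356-21848743, with a median of 34.7 and values between 18.0 in the Zld DBD titration list and 50.1 in the HA-Twi titration list. Next were a region inside bnl, the gene of the FGF ligand Branchless, 34 bp from tRNA:Thr-AGT-1-7 (median 30.6), and a region 29 bp from tRNA:Arg-CCT-1-3 (29.1). Others lay inside Ptr (27.8), Sema1a (26.5 and 23.9), pyd (21.6) and tkv (21.4), next to tRNA genes within those genes. When distal regions were put in order of median fold enrichment and cut into 10 classes of equal number, 33 of the 434 in the strongest class (7.60%, interval 5.29 to 10.5) were near a tRNA gene, against 1 of 435 in the weakest class (0.230%). Of the strongest 100, 11 were.

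Near lncRNA genes, the same order gave 24 regions (5.53%) in the strongest class and 12 (2.76%) in the weakest. Between these ends there was no steady fall. Counted from the strongest, class 3 had 14 (3.23%) and class 5 had 25 (5.76%), the most of any class. In all, 313 distal regions (7.21%, interval 6.46 to 8.02) had a noncoding gene end within 500 bp. The nearest was a lncRNA for 176, a tRNA for 88 (1 of the 89 lay nearer to another noncoding gene), an antisense RNA for 21 and a miRNA for 8, the last with a median fold enrichment of 2.79. The remaining distal regions had no annotated gene end of any kind within 500 bp.

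**Figure D3:**
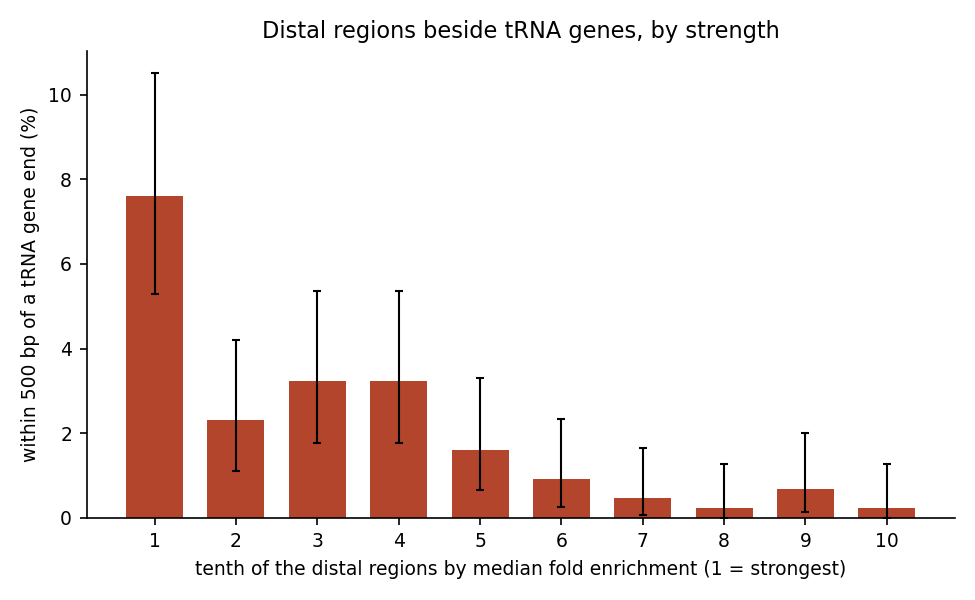
Percentage of distal regions with a tRNA gene end within 500 bp, by class of median fold enrichment, 10 classes of equal number with the strongest first; lines are exact binomial 95% intervals. The strongest class stands at 7.60% and the weakest at 0.230%.

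Distal regions were spread over 1020 genes. Of 3146 protein-coding genes with sequence over 2000 bp from every gene end inside them, 1020 (32.4%) held at least 1 distal region. Exactly 1 was held by 385 genes, 5 or more by 240, and 10 or more by 74, which together held 1065 distal regions. Counting also the nearest gene of each region outside genes, 1350 genes were linked to a distal region, 330 of them only from outside. Genes with under 5 kb of such interior held one in 13.6% of cases and those with 50 kb or more in 66.5%. Per 100 kb there were 11.0 with under 5 kb, 11.2 from 5 kb, 8.70 from 20 kb and 5.55 from 50 kb. The last class had 18523 kb of interior, in which Myo81F held 4 distal regions in 1962 kb and Pzl 3 in 705 kb.

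The gene with the most was Eip75B, an ecdysone-induced nuclear receptor gene, which held 34 distal regions at 33.4 per 100 kb of interior. bun, which encodes TSC22-domain growth regulators, held 27 (34.7 per 100 kb), and tai, which encodes the ecdysone receptor coactivator Taiman, held 23 (29.0). InR, the insulin receptor gene, held 22 in 45.1 kb, and its 48.8 per 100 kb was the highest density among the 10 genes with the most. EcR, the ecdysone receptor gene itself, held 21 (29.1 per 100 kb), but 8 of these lay within 500 bp of tRNA genes inside EcR, and 13 remained without them (18.0 per 100 kb), an alternative chosen after seeing the data. None of the other 9 genes held a distal region near a tRNA gene. Across all gene interiors far from gene ends the figure was 8.04 per 100 kb.

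The other 5 genes of the leading 10 were pum, an RNA-binding translational repressor gene, with 23 distal regions (14.2 per 100 kb), luna, a KLF-type transcription factor gene, with 22 (17.2), and Ten-m, a teneurin cell-surface gene, with 22 (20.8). fru, a BTB zinc finger gene best known for sex-specific neurons, held 21 (16.5), and mtgo, which encodes a fibronectin type III protein, 20 (19.8). The median fold enrichment of the distal regions inside mtgo was 7.69, inside Eip75B 6.46, and inside bun 6.45, while inside InR it was 3.64 and inside Ten-m 3.59.

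The strongest distal region of Eip75B, at 3L:18029486-18029913, had a median of 31.7. Its fold enrichment was 17.8 in the Grh, 26.8 in the Zld, 32.8 in the Twi, 34.2 in the Grh DBD and 34.8 in the Zld DBD list. In the titrations it was 35.7 for Grh, 28.3 for Zld, 30.6 for HA-Twi, 35.2 for Grh DBD and 36.2 for Zld DBD. The Grh list was the low one and the other 9 lists lay between 26.8 and 36.2. Values of different lists depend on each list's own depth and background, so these are a description.

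**Figure D4:**
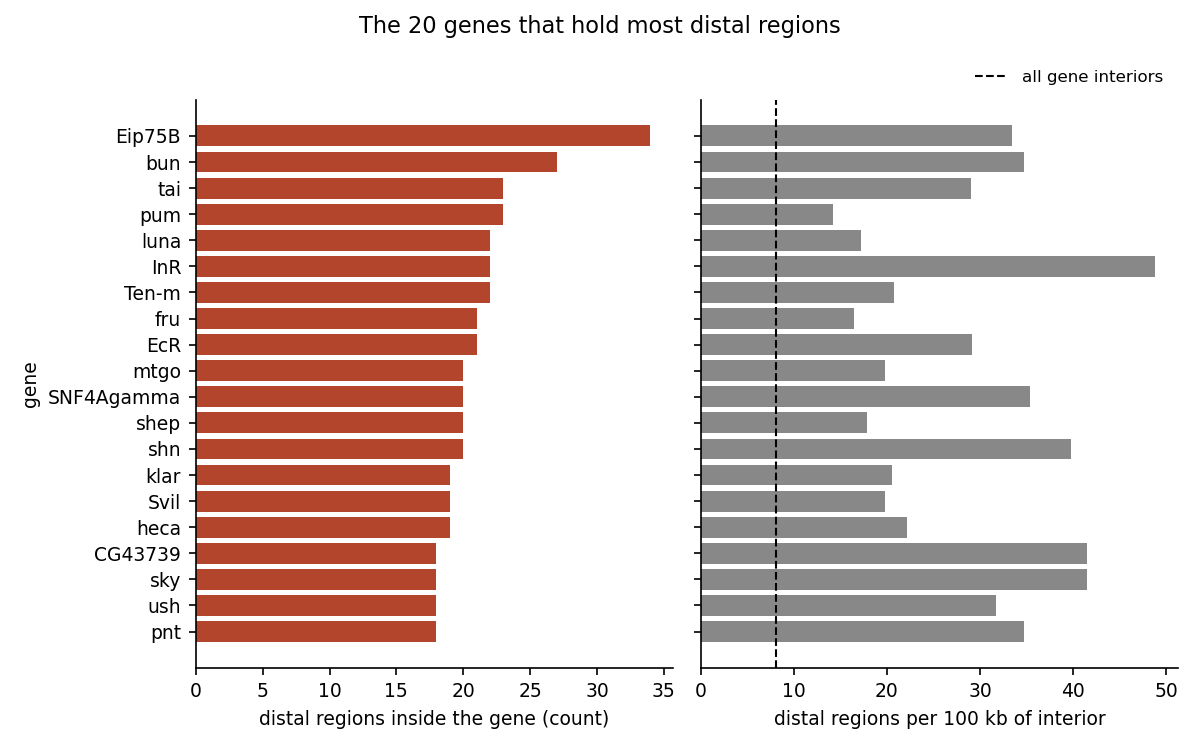
Distal regions in the genes that hold the most: number per gene (left) and number per 100 kb of interior over 2000 bp from gene ends (right), with the line at the value for all such gene interiors, 8.04; CG43739 and sky share the same span and so the same regions. Eip75B has the most, 34, and InR the highest density among the 10 genes with the most, 48.8.

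Genes of the ecdysone response held many distal regions. The gene lists below were chosen with earlier results of these data known, so they are described by counts beside those of all genes, and carry no test. A gene counted if a distal region could be linked to it at all, and of 4643 such genes 29.1% had at least 1 and 17% at least 2, at 6.47 per 100 kb. Of 15 ecdysone response genes, 12 had one, all 12 at least 2, with 153 regions in all at 21.7 per 100 kb, or 145 at 20.5 per 100 kb without those near tRNA genes. Beside Eip75B, tai and EcR, the nuclear receptor genes ftz-f1 (12 regions), Hnf4 (10), Eip78C (7) and Hr3 (4), the ETS factor gene Eip74EF (10) and the ecdysone-induced genes Eip63E (13) and Eip93F (11) were among them. Hnf4 had its 10 regions in 14.3 kb of interior.

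Strong elements were spread through this group. The highest median fold enrichment per gene was 31.7 for Eip75B, 27.7 for ftz-f1, 27.1 for Hnf4, 21.6 for Eip78C and 18.4 for EcR. At Hnf4 the strongest region, at 2L:8691543-8692009, ranged between 16.4 in the Grh list and 34.1 in the Grh DBD list. At EcR, the region at 2R:6120391-6120941 ranged between 11.4 in the Grh list and 23.8 in the HA-Twi titration list.

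Of 16 cytoskeleton and adhesion genes, 13 had a distal region, at 25.6 per 100 kb, the highest density of the 13 lists. They included trio with 14, shot, the spectraplakin gene, with 9, and ena, mbc and RhoGAP71E with 8 each. zip, the nonmuscle myosin heavy chain gene, had 7, and the filamin gene cher and the kinase gene Abl 6 each. Cell signalling lists were also above all genes in both counts. Gene size was not matched in any list. Over all genes with interior far from gene ends, the share holding a distal region rose from 13.6% with under 5 kb to 66.5% from 50 kb. Ras and JNK signalling genes had one in 13 of 17 (14.5 per 100 kb), led by the ETS factor gene pnt with 18, and Wnt, Hedgehog, Dpp and Notch genes in 14 of 21 (13.9 per 100 kb), led by shn with 20.

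Hemocyte genes had a distal region in 11 of 19 cases, 9 of them with at least 2, and 54 in all at 16.6 per 100 kb. ush, which encodes a Friend of GATA cofactor that restrains lamellocyte formation, held 18, the strongest with a median fold enrichment of 12.3. srp held 4, and the strongest of them, at 3R:15993110-15993519, had a median of 19.5. Mmp2, a matrix metalloproteinase gene, and kay, the Fos gene, had 7 each. The receptor gene Tl had 5, the JAK/STAT transcription factor gene Stat92E 4, the collagen gene vkg 3, the peroxidasin gene Pxn 2, the PVF receptor gene Pvr 2, and drpr and Ppn 1 each.

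Hml, crq, Col4a1, gcm, gcm2, Sr-CI, Sr-CII and Tig had 0 distal regions, although Hml, crq and Col4a1 had 1, 3 and 2 regions of all lists inside or within 500 bp that were not distal or not under 600 bp. Among immune signalling genes, 4 of 7 had a distal region (12.9 per 100 kb): Dif, a Toll pathway NF-kappaB gene, with 3, its inhibitor gene cact with 1, and the peptidoglycan recognition genes PGRP-LC and PGRP-LB with 1 each. The strongest of Dif had a median of 12.6 and that of PGRP-LB 2.64. dl, the other NF-kappaB gene of the Toll pathway, had 0.

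Polycomb and Hox genes had a distal region in 11 of 14 cases at 8.77 per 100 kb, close to the density over all genes. The Hox genes differed among themselves. Abd-B and Antp had 10 each, with highest medians of 32.4 and 17.4, while Ubx had 2 over 80.0 kb, the stronger with 29.7. Scr had 3, and its highest median, 14.2, was at a region outside the gene. That region lay 3240 bp from Scr and 14 bp from tRNA:Lys-TTT-2-1. The highest medians at abd-A (7.10, 2 regions), pb (5.28, 1 region), Dfd (4.60, 2 regions) and lab (3.02, 1 region) were nearer to the median over all distal regions, 4.76. A highest value over 1 or 2 regions is not like one over 10, so these genes are not ranked by it. Su(z)2, a Polycomb-group gene, had 4, the strongest with 23.9.

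Lists of other tissues stood closer to all genes in density, or below them. Mesoderm and muscle genes had a distal region in 9 of 17 (6.93 per 100 kb), among them Mef2, the muscle and fat body transcription factor gene, with 4 and a highest median of 21.4. Epidermal barrier genes had one in 4 of 15 (6.13) and early zygotic genes in 3 of 14 (8.50, with 13 of the 15 regions at hry). Germline genes had one in 5 of 7 (4.49). This share, 71.4% (exact interval 29.0 to 96.3), was above the 29.1% of all linkable genes. AGO3 made up 244.065 of the 311.55 kb of the germline genes and held 4 of their 14 regions. The low germline density thus rests largely on AGO3. Neuronal genes, with the glial gene repo counted among them, had a distal region in 4 of 13 at 1.86 per 100 kb, and 4 of the 7 regions were at Dscam1. pros, Rdl and Syt1 had 0, with 106.0, 40.8 and 24.3 kb far from gene ends. Of the copper and heat-shock genes only MtnC, MtnE, Hsf and Hsp83 could be linked to a distal region, and 0 of 4 were, which with 4 genes allows a share of up to 60.2%.

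**Figure D5:**
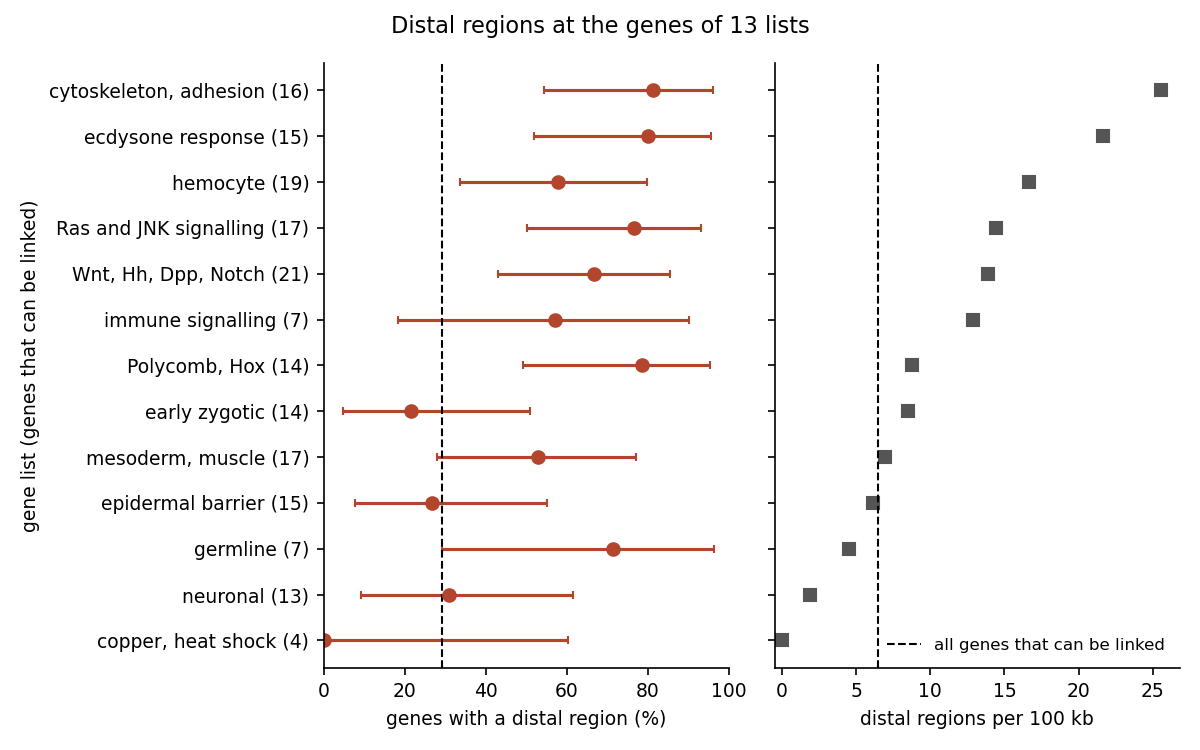
Distal regions by gene list: percentage of linkable genes with at least 1 (left, with exact binomial 95% intervals) and distal regions per 100 kb (right), with lines at the values for all linkable genes, 29.1% and 6.47 per 100 kb. Cytoskeleton and ecdysone genes lie highest and neuronal and copper genes lowest in density.

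Many very long genes held no distal region. Of 179 genes with at least 50 kb of interior far from gene ends, 60 held 0, 43 held 10 or more, and the median was 3.80 per 100 kb. The longest empty ones were CG17684 (392.0 kb of interior), DIP-lambda (375.1 kb), bru3 (277.5 kb) and Snap25 (221.0 kb). Snap25 encodes a synaptic SNARE protein, DIP-lambda and dpr6 (142.6 kb) neuronal cell-surface immunoglobulin proteins, and bru3 an RNA-binding protein. CG17684 lies at 2R:1866080-2262115, DIP-lambda at 2R:326768-705848 and Snap25 at 3L:24074180-24299205. bru3 lies at 3L:13521907-13803400 and dpr6 at 3L:9974651-10139360. How well reads can be placed in these genes was not tested, so their emptiness is given by position and not by tissue. In CG17684, DIP-lambda, bru3, Snap25 and dpr6 the HA-Twi titration list held no region at all, while dpy, a giant cuticle-anchoring protein gene (128.3 kb), held 4, of which 2 were in all lists but not distal or not under 600 bp. Myo81F, which holds the strongest distal region, had 4 in 1962 kb and Pzl 3 in 705 kb.

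Lists ranked distal regions in a similar but not identical order. Over the 4341 distal regions, the Spearman correlation of fold enrichment between pairs of the 8 lists lay between 0.65 and 0.94, with a median of 0.78, and over the gene-end regions between 0.79 and 0.94, with a median of 0.85. These are correlations across regions, which share depth and cell line, and carry no p. The closest pair was Grh DBD with Zld DBD (0.94), and the most distant Twi with the Grh titration (0.65). The HA-Twi titration list was closer to the Zld titration (0.86) and the Grh titration (0.83) than to the Twi list (0.69). Of the 434 strongest distal regions in each list, 183 (42.2%) were among the strongest 434 of all 8 lists, and 830 regions were among the strongest 434 of at least 1 list.

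The regions with the 3 largest ratios of ranks between lists were narrow, while 4 of the next 7 were wider than the median of 241 bp. A 70 bp region at 3R:4012119-4012188, 65785 bp from CG42402, ranked 2 in the Zld DBD list with a fold enrichment of 41.2 and 2077 in the HA-Twi titration list with 6.52. A 64 bp region inside Pzl (3R:3169576-3169639) ranked 5 in the Grh list with 31.4 and 2166 in the HA-Twi titration list with 6.26. Inside CG33144, a 107 bp region at 2R:10782568-10782674 had 38.2 in the Zld titration list, 17.7 in the Twi list and between 3.30 and 6.29 in the other 8. Each value is the highest of the joined region that overlapped it in that list. Its rank of 9.5 in the Zld titration list was a tie with another distal region. A neighbour at 2R:10782824-10782996 had a median of 26.7, and whether the 38.2 belongs to the summit of that neighbour was not tested.

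The gene twi, whose product is the factor expressed in the Twi lists, held 2 distal regions, and they are singled out here after their values were seen. The region at 2R:23046178-23046252 (75 bp, 2106 bp from a gene end) had a fold enrichment of 2.23 in the Twi list and 1.95 in the HA-Twi titration list. In the other lists it was 19.5 (Zld), 17.0 (Zld titration), 13.3 (Grh titration), 11.1 (Grh), 9.25 (Grh DBD), 9.03 (Zld DBD), 7.34 and 6.99 (the 2 DBD titrations). The values of the 2 Twi lists lay below all others. Outside the HA-Twi titration list, each value is the highest of the joined region that overlaps these 75 bp. Its summit may lie outside them, which was not tested. The other region, at 2R:23001984-23002136, had 8.48 in the Twi list and 10.3 in the HA-Twi titration list, within the 7.11 to 15.6 of the other lists.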

How the data were processed

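Values came from 10 deposited MACS-format peak lists of 48 ATAC-seq libraries in S2 cells. Per the submitters' processing notes, the build was dm6 and the tools named were Bowtie2, MACS2, featureCounts, DESeq2 and deepTools 3.5.1. Settings, any shift of reads for the transposase, and the way replicates were pooled are not stated in the labels. Each row holds the authors' fold enrichment, a ratio over background, a deposited −log10 q, a deposited score and a summit offset. Both lists of the DBD titrations consist of 200 bp windows with no summit, and the labels name no libraries for them, so medians use the other 8 lists. No deposited value belongs to 1 library, so precision is given only as an SD over lists or as exact binomial intervals. The intervals cover counting error over regions or genes.

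Rows of 1 peak number were joined and the strongest summit kept. In each other list a distal region takes the highest value of the joined region it overlaps most, so neighbouring distal regions can share a value. Genes came from the RefSeq table of Release 6 (11645 protein-coding genes on the 4 arms), without strand or exons. A gene is linked if it holds the summit or, outside genes, is nearest to it. Of 288 symbols in the gene lists, 285 matched, 6 by synonym, and a few genes are in more than 1 list. Distal and gene-end medians were compared per list by two-sided exact permutation of signs over 7 lists with Benjamini-Hochberg adjustment over 3 tests and a threshold of 0.05. The code was tested on simulated data. Genes named are the holders of the 12 strongest regions, the 10 genes with the most, and members of the gene lists; tRNA genes, runs, empty genes, rank changes and twi were chosen after their values were seen. The members and gene lists were chosen with earlier results of these data known. The planned motif counts were not run, as only a gene table was used. Software was scipy 1.17.1, pandas 2.3.3, numpy 2.4.6 and matplotlib 3.10.9 under Python 3.11.15.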

Additional observations from a re-analysis of the deposited data

How the results depend on the processing

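Requiring a −log10 q of at least 10 in every list left 2799 distal regions, and a distance over 5000 bp left 2707, in 781 genes. When the ends of noncoding genes also counted as gene ends, 83.7% of distal regions were inside a protein-coding gene; for these changes fewer regions were eligible by construction. Leaving out each required list in turn gave 4347 to 4467 regions, 79.9% to 80.3% inside genes and 1350 to 1373 genes. Leaving out each tested list in turn gave a difference in fold enrichment between -1.66 and -1.37, each with p = 0.0312 (exact permutation test, the smallest 6 lists can give). The other alternatives run, 50% overlap, 1000 bp, no width limit, −log10 q in place of fold enrichment, all 10 lists, a gene-end set within 2000 bp, and, added after the data were seen, leaving out Myo81F and Pzl, kept direction and side of the threshold where a test was run and moved counts by less than 1.5 times. The motif alternative was not run. No paired analysis was possible because each list pools its replicates, so no value carries a replicate number.

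Depth is unknown, so absence from a list says only that no region was detected there. Differences between control and factor cells, doses or replicates could not be measured.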
